A study of Homo sapiens with 4 samples.

Results

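Bone morphogenetic proteins (BMPs) are secreted ligands of the TGF-beta superfamily that pair type I with type II serine/threonine kinase receptors, which phosphorylate SMAD1, SMAD5, and SMAD9. These SMADs enter the nucleus with SMAD4 and raise transcription of target genes, the best known of which are the ID genes and the inhibitory SMADs. Noggin and gremlin are secreted antagonists that bind the ligands and keep them from their receptors.

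Messenger RNA of 10 genes of this pathway was examined in TPC1 cells, namely the ligands BMP2 and BMP4, the receptors BMPR1A and BMPR2, the antagonists NOG (noggin) and GREM1 (gremlin), the inhibitory SMAD6, and ID1, ID2, and ID3. Each was matched by its symbol, and 10 of 10 were found among the 20372 genes of the deposited table. The genes were chosen with their values at 24 h and 6 h known, so their changes between these times are given as a description, with no test. NOG is also labelled in the heatmap of the study's resistance signature, as are PMEPA1 and GATA3 below. The study selected the signature genes for a fall after BLU6864, a rebound between these times, and sensitivity to added BGJ398, an FGFR inhibitor.

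TPC1 is an established papillary thyroid carcinoma line that carries the CCDC6-RET rearrangement, and BLU6864 is a RET inhibitor. The cells, grown in DMEM with FBS, were exposed to BLU6864 for 6 h or for 24 h, and 2 libraries were sequenced per time. All 4 libraries share the line and the inhibitor, so effects of the inhibitor cannot be told apart from those of culture time. The dose is 100 µM in the labels but 100 nM in the methods. The labels call both 24 h libraries, and neither 6 h library, re-analysed, so this status cannot be told apart from time either.

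Total counts lay between 23917056 and 27457040 per library, and 3 counts corresponded to at most 0.125 CPM (the count scaled to a fixed library total). Nothing in the labels says whether the libraries of a time came from separate cultures, so errors and P values measure the spread between libraries, which may be technical. Among thyroid follicular markers, PAX8, FOXE1, and TG were above 3 counts in every library, whereas NKX2-1 and TSHR had 0 counts throughout. Of 6 epithelial markers, 4 were above 3 counts in every library, but EPCAM had at most 11 and CDH1 at most 8 counts. Of 7 white blood cell markers, 2 were above 3 counts in every library, namely CD68 and CSF1R, and PTPRC had at most 5. The summed level of the 7 was between 98.4 and 99.6 CPM at 24 h and between 180 and 188 at 6 h. Of 6 fibroblast markers, 3 were above 3 counts in every library. Their summed level was between 9.70 and 11.0 CPM at 24 h and between 23.8 and 24.5 at 6 h, and DCN and FAP had at most 1 count. LUM went against this sum, with raw counts of 71 and 66 at 24 h and 39 and 40 at 6 h. Of the 3 endothelial markers in the table, KDR alone was above 3 counts in every library. Its list summed to between 0.983 and 1.81 CPM at 24 h and between 19.7 and 21.0 at 6 h. The part of these shifts in the changes below was not tested.

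Of the 2 chosen ligands only BMP4, and of the 2 chosen antagonists only NOG, had more than 4 counts in any library. Between 6 h and 24 h, NOG was the member that differed most, ID1 and ID2 were moderately higher, and ID3 and SMAD6 were lower. BMP4 and BMPR2 differed little. Of the 10 genes, 8 had enough counts to be fitted. The cutoffs for the further genes below took their sizes from the methods. They were applied in both directions and to the unadjusted P (a P under 0.01 and a log2 fold change beyond 0.5 in size). The members, chosen with this contrast known, are not called at these cutoffs. Of all 12876 genes fitted, 17.4% passed upward, 17.7% downward, and 35.1% in either direction. The libraries of the 2 times did not overlap in 7 of the 8 genes, beside 81.8% of all genes fitted.

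**Figure D1:**
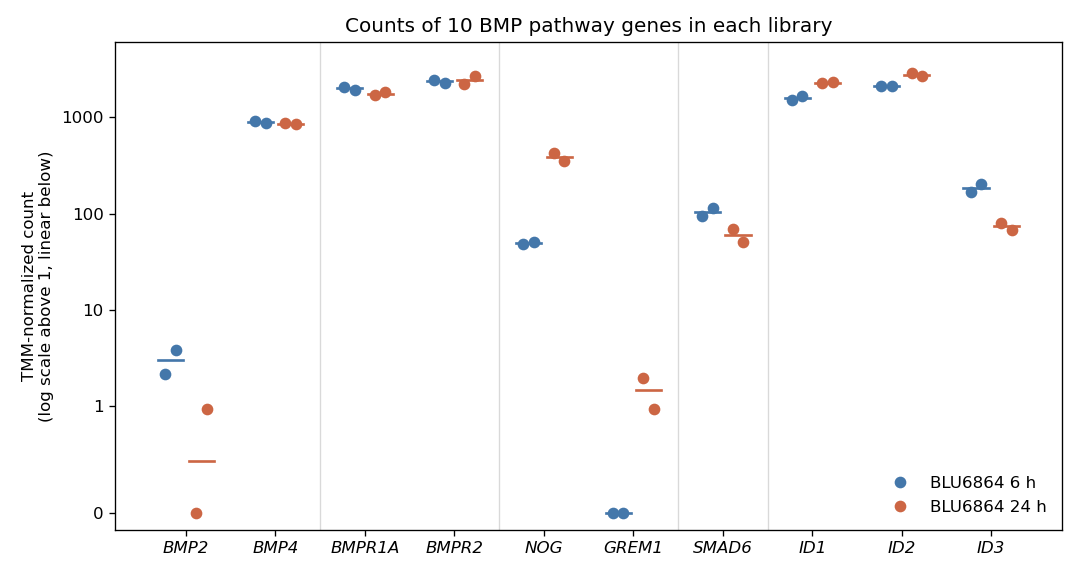
TMM-normalized counts (vertical axis, log scale above 1 and linear below) of the 10 genes in each library, with points for libraries and bars for the mean of 2 libraries at 6 h (blue) and 24 h (orange). NOG lies near 50 at 6 h and above 350 at 24 h, ID3 and SMAD6 are lower at 24 h, and BMP2 and GREM1 stay under 4.

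The ligand BMP4 (ENSG00000125378, hg19 chromosome 14 from 54416454 to 54425479) had normalized counts of 865 and 845 at 24 h and of 919 and 882 at 6 h. Both 24 h libraries were thus below both 6 h libraries, by a margin that was small beside the values. The log2 fold change of 24 h against 6 h was -0.07 (standard error 0.0793). It lay between -0.12 and -0.04 under every alternative run. BMP2 (ENSG00000125845, chromosome 20 from 6748311 to 6760927), a close relative of BMP4, had raw counts of 0 and 1 at 24 h and of 2 and 4 at 6 h. At this depth no difference in BMP2 was detectable, and no fold is given.

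The receptors form the signaling complex on the cell surface, BMPR1A as a type I and BMPR2 as a type II receptor. BMPR1A (ENSG00000107779, chromosome 10 from 88516407 to 88692595) had normalized counts of 1693 and 1817 at 24 h and of 2075 and 1934 at 6 h. All values at 24 h were below those at 6 h (log2 fold change -0.19, standard error 0.0719). BMPR2 (ENSG00000204217, chromosome 2 from 203241659 to 203432474) had 2203 and 2685 normalized counts at 24 h and 2445 and 2271 at 6 h. Its times overlapped, and the log2 fold change was 0.05 (standard error 0.0811). Without the second 24 h library this value was -0.09, so its direction rested on that library. It was also just under 0, at -0.00052, without the second 6 h library.

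NOG (ENSG00000183691, chromosome 17 from 54671060 to 54672951), the gene of the antagonist noggin, has 1 exon in its longest coding transcript. Its normalized counts were 423 and 353 at 24 h and 48.6 and 50.8 at 6 h. The lower 24 h library thus lay far above the higher 6 h library. The log2 fold change was 2.96 (standard error 0.154), a 7.78-fold higher count, and NOG ranked 79 from the highest among the 12876 genes fitted. Fits without single libraries gave values from 2.83 to 3.09. GREM1 (ENSG00000166923, chromosome 15 from 33010175 to 33026870), which encodes another secreted antagonist, had 2 and 1 raw counts at 24 h and 0 and 0 at 6 h. All 4 libraries were at or under 3 counts, so no fold is given.

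**Figure D2:**
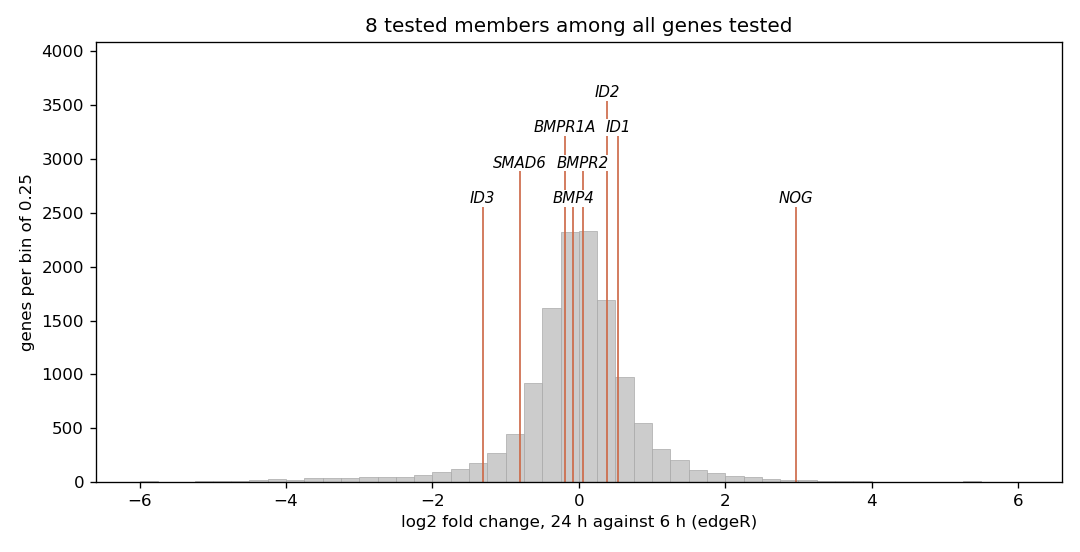
Number of genes (vertical axis) per bin of 0.25 in log2 fold change of 24 h against 6 h (horizontal axis) for the 12876 genes fitted, with lines at the 8 fitted members. NOG at 2.96 lies in the upper tail, ID3 at -1.31 in the lower, and BMP4 and BMPR2 near the median of all genes, 0.0029.

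SMAD6 (ENSG00000137834, chromosome 15 from 66994566 to 67074338) encodes an inhibitory SMAD that restrains BMP receptor signaling and is itself a BMP target. It had 69.7 and 50.6 normalized counts at 24 h and 95.0 and 115 at 6 h. Both 24 h libraries were lower, at a log2 fold change of -0.81 (standard error 0.194). This value was -0.59 without the second 24 h library and -0.66 without the second 6 h library.

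The ID proteins are helix-loop-helix proteins without a DNA-binding region, which bind E proteins and keep them from DNA. ID1 (ENSG00000125968, chromosome 20 from 30193086 to 30194318) had 2282 and 2303 normalized counts at 24 h and 1516 and 1653 at 6 h. ID2 (ENSG00000115738, chromosome 2 from 8818975 to 8824583) had 2886 and 2680 at 24 h and 2141 and 2114 at 6 h. In both genes every 24 h library was above every 6 h library. The log2 fold change was 0.53 (standard error 0.0714) for ID1 and 0.39 (standard error 0.0709) for ID2. That of ID1 was 0.49 with library size alone and 0.47 without the first 6 h library. ID3 (ENSG00000117318, chromosome 1 from 23884409 to 23886285) went the other way, with 80.7 and 68.1 normalized counts at 24 h against 166 and 202 at 6 h. On the log2 scale it was -1.31 (standard error 0.163), a 2.49-fold lower count. Fits without single libraries ranged from -1.44 to -1.16. The fourth family member, ID4, named here after its values were seen, was 0.49 higher on the log2 scale (standard error 0.225), with an edgeR adjusted P of 0.0603.

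Because the ID genes differed in direction, their promoters are shown, as RefSeq gives the 250 bases before each start in GRCh38.p14. Of the 10 genes, 8 matched the promoter table, which had no entry for NOG and BMP2. Capitals mark CCAAT or its reverse complement ATTGG, and TATAAA or its reverse complement TTTATA, which are letters of common core promoter elements.
ID1 (chr20:31605039-31605288, plus strand): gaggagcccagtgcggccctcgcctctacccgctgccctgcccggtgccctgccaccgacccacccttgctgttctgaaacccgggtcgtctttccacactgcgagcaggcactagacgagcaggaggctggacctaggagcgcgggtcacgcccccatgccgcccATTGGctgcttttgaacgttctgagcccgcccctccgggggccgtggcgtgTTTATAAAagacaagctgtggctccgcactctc
ID2 (chr2:8681806-8682055, plus strand): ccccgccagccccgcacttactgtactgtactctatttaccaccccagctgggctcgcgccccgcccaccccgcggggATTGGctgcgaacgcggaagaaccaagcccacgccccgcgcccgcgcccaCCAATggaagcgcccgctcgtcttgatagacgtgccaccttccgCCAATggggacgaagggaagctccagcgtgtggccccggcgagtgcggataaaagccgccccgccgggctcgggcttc
ID3 (chr1:23559502-23559751, minus strand): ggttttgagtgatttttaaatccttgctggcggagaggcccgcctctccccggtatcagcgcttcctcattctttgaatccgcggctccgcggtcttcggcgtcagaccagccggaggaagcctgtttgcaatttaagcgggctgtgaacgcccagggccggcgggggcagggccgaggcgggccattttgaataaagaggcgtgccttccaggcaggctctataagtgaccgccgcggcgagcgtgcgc
In ID1, ATTGG began 84 bases before the start, and TATAAA and TTTATA overlapped from 33 bases before it. ID2 held CCAAT on either strand 3 times, 172, 122, and 78 bases before the start, and no TATAAA. ID3 held neither set of letters in this window. Only exact letters were searched for, and letters close to TATAAA stood near the start in ID3 (TATAAG) and ID2 (GATAAA). Of the 35116 promoter windows of the table, 32.0% held CCAAT and 10.7% TATAAA on either strand. GGCGCC, letters bound by SMAD1 and SMAD5, was present in 16.4% of all windows and in 0 of these 3, and among the other members in BMP4, BMPR2, and GREM1. Only the 250 bases were searched, so sites further upstream are not covered. RefSeq gives 3 starts for BMP4 and 2 for GREM1, and GGCGCC lay only before start 1 of each. CACCTG, an E box, was in 17.5% of all windows and in none (0) of the members'. CAGACA was in 13.6% of all windows and in BMPR2, BMP4 (before start 3 only), and GREM1 (before start 1 only). GTCT, a short SMAD motif that CAGACA contains on the opposite strand, was in 77.5% of all windows and in all 3 ID promoters. CCAAT and TATAAA were added after the sequences were seen.

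Levels were compared between genes as CPM per kilobase of the longest coding transcript. At 24 h, ID1 had 70.0 ± 0.166 (SD, n = 2), ID2 51.4 ± 3.14, BMP4 16.7 ± 0.424, and BMPR1A 10.3 ± 0.424 on this scale. NOG, at 7.65 ± 1.04, and BMPR2, at 7.62 ± 0.997, did not differ beyond their spread. They were followed by ID3 at 2.95 ± 0.379 and SMAD6 at 0.593 ± 0.138, and BMP2 and GREM1 were near 0. At 6 h, the level of NOG was 1.01 ± 0.0347, within the spread of SMAD6 at 1.06 ± 0.147, and that of ID3 was 7.53 ± 1.06, within the spread of BMPR2 at 7.58 ± 0.380. With the coding length in place of the transcript, ID2 stood above ID1, and BMPR1A above BMP4, at both times. BMPR2 and BMP4 were then close to each other, with means of 29.5 and 26.3 at 24 h and 29.4 and 28.5 at 6 h. BMPR2 stood above NOG at 24 h and above ID3 at 6 h, so these orders and ties depended on the length used. BMP4 exceeded NOG at both times with either length.

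The balance of BMP4 and NOG differed between the times. Per length, the level of BMP4 was 18.7 and 17.2 times that of NOG at 6 h and 2.02 and 2.37 times that of NOG at 24 h. With the coding length it was 10.8 and 9.86 times at 6 h and 1.16 and 1.36 times at 24 h, so the size of the ratio depended on the length used. BMP4 itself differed little between the times, as given above. The summed level of ID1, ID2, and ID3 was 127 and 122 at 24 h and 95.0 and 101 at 6 h, in CPM per kilobase. ID3 made up 2.54% and 2.20% of this sum at 24 h, and 7.13% and 8.23% at 6 h. The level of ID1 was 21.8 and 26.1 times that of ID3 at 24 h and 7.02 and 6.29 times at 6 h. The ID genes together had 2.96 and 2.94 times the summed level of their partners TCF3, TCF4, and TCF12 at 24 h, and 2.04 and 2.29 times at 6 h. With the coding length these ratios were 4.11 and 4.04 at 24 h and 2.79 and 3.10 at 6 h, so their size also depended on the length.

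**Figure D3:**
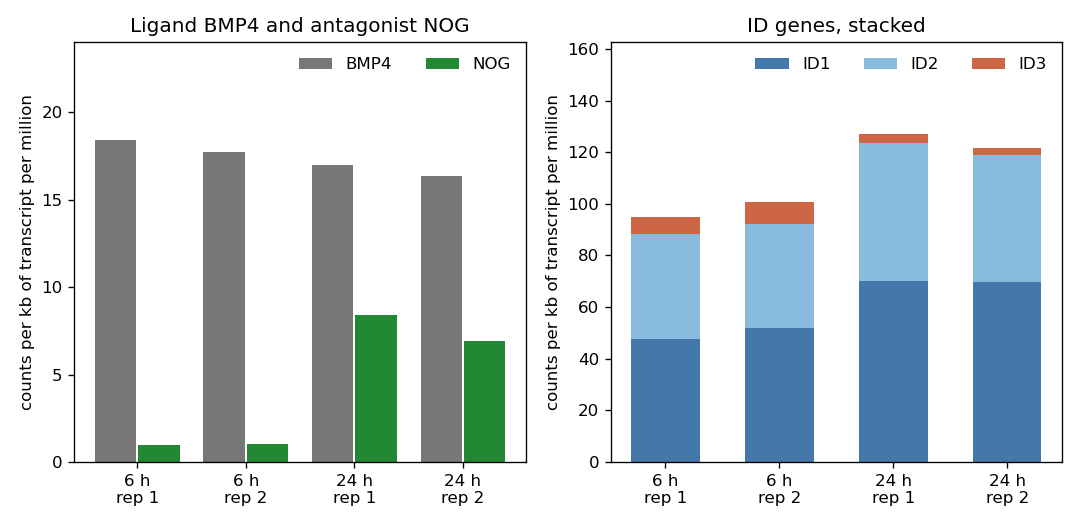
CPM per kilobase of transcript (vertical axis) in each library, for BMP4 and NOG side by side (left) and for ID1, ID2, and ID3 stacked (right). BMP4 is between 16.4 and 18.4 in every library while NOG is near 1 at 6 h and at 6.91 and 8.39 at 24 h, and the ID sum is higher and its ID3 part smaller at 24 h.

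To place these genes in their pathway, a list of 78 further genes of BMP signaling was tested across the same libraries, of which 77 were in the table and 51 had enough counts. The list, like the members, was chosen with earlier results of these data known, and it includes PMEPA1 and GATA3. Its shares and P values are therefore no independent evidence. Of the 51 genes, 12 were higher and 9 lower at 24 h past the cutoffs, and 30 passed in neither direction. This is 23.5% higher and 17.6% lower, beside 17.4% and 17.7% of all genes fitted. The median log2 fold change was 0.15, beside 0.0029 over all genes fitted. With a Benjamini-Hochberg adjusted P under 0.05 and no cutoff on fold change, 20 were higher and 14 lower, beside 33% and 32.6% of all genes fitted.

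Of 18 further ligands, 6 were fitted, and 1 was higher and 3 lower (16.7% and 50.0%, beside 17.4% and 17.7% of all genes). BMP6 fell from 943 and 984 normalized counts at 6 h to 509 and 428 at 24 h (log2 fold change -1.04, standard error 0.0911, edgeR adjusted P = 1.31e-10). Its position overlaps that of TXNDC5, whose log2 fold change was -0.78, and counts of overlapping genes are uncertain. GDF11, a ligand of activin type receptors, fell by 0.54 on the log2 scale (edgeR adjusted P = 2.99e-05). That of GDF5, a ligand known from joint development, was -1.14 (edgeR adjusted P = 0.0145) at no more than 21.6 normalized counts in any library. GDF5 was outside the cutoffs whichever of the 4 libraries was left out, with DESeq2, with upper quartile scaling, and with either other filter on low counts, and GDF11 without the second 24 h or the first 6 h library. GDF15 rose from 1400 and 1312 to 3776 and 3846 normalized counts (log2 fold change 1.49, standard error 0.0725, edgeR adjusted P = 6.02e-16). GDF15 is a stress-induced distant relative that acts through GFRAL with RET as co-receptor and not through BMP receptors. Over the 18 of 20 ligand genes with a known length, the summed level per kilobase was 121 ± 0.660 at 24 h and 66.9 ± 2.01 at 6 h (SD, n = 2). Without GDF15, chosen for leaving out after its values were seen, it was lower at 24 h, with 23.8 ± 1.06 against 31.3 ± 0.463.

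Of 10 further receptors and co-receptors, 7 were fitted, 0 were higher, and BMPR1B was lower. The lower share was 14.3%, beside 17.7% of all genes fitted. BMPR1B, the other main type I receptor of BMPs, had 35.9 and 50.6 normalized counts at 24 h and 96.1 and 78.7 at 6 h. Its count was 2.01-fold lower (standard error 0.216 on the log2 scale, edgeR adjusted P = 0.000219). ACVRL1, a type I receptor for BMP9 and BMP10 known from endothelium, was under the filter with raw counts of 11 and 9 at 24 h and 3 and 0 at 6 h. The ratio of the sums, scaled for depth, was 6.46, with an exact 95% interval for counting error only from 1.92 to 34.0.

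Of the 11 extracellular antagonists and modulators fitted, 5 were higher and 2 lower (45.5% and 18.2%, beside 17.4% and 17.7% of all genes). CHRD (chordin), an antagonist that like noggin binds BMPs, rose from 1613 and 1689 normalized counts at 6 h to 2488 and 2721 at 24 h. This was 0.66 on the log2 scale (standard error 0.0724, edgeR adjusted P = 1.04e-08). CHRD overlaps EIF2B5, whose log2 fold change was 0.25. TLL2, a tolloid protease, rose by 0.91 on the log2 scale (edgeR adjusted P = 4.31e-11). Its relative TLL1 had raw counts of 23 and 18 at 24 h and 3 and 3 at 6 h, a ratio of 6.62 with an exact 95% interval from 2.80 to 19.1 (edgeR adjusted P = 7.87e-05). CRIM1, a membrane protein that binds BMPs, rose by a log2 fold change of 0.82, and FSTL3, which binds activins, by 1.35 (edgeR adjusted P of 5.03e-10 and 4.46e-12). TWSG1 and FSTL1 were the lower genes, with log2 fold changes of -0.68 and -0.63 (edgeR adjusted P of 8.83e-09 and 5.70e-08). TWSG1 (twisted gastrulation) binds BMPs together with chordin. The rise of CHRD and the higher NOG counts at 24 h stood beside a fall of TWSG1. CHRDL1, listed in the same role and named after its values were seen, fell by 0.44 on the log2 scale (edgeR adjusted P = 8.53e-06). Its level was 35.9 CPM per kilobase at 24 h and 50.1 at 6 h, beside 27.7 and 18.1 for CHRD. With an edgeR adjusted P under 0.05 and no cutoff on fold change, 7 of the 11 were higher and 3 lower. The summed level of all 21 antagonists and modulators, NOG and GREM1 included, was 233 ± 0.0231 CPM per kilobase at 24 h and 241 ± 10.7 at 6 h, a difference within the spread of the 6 h libraries. With the coding length the sum was lower at 24 h beyond the spread, with 815 ± 18.5 against 1007 ± 53.8. The sum includes the tolloid proteases, TLL1 and TLL2 among them, and is thus not a level of antagonists alone.

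All 7 further SMAD genes were fitted, and 2 were higher and 1 lower (28.6% and 14.3%, beside 17.4% and 17.7% of all genes). SMAD9, a SMAD that BMP receptors phosphorylate, fell from 878 and 862 normalized counts to 394 and 425. On the log2 scale it fell by 1.09 (standard error 0.0883, edgeR adjusted P = 3.02e-11). The other SMADs of BMP receptors, named after their values were seen, had log2 fold changes of 0.17 (SMAD1, edgeR adjusted P = 0.0683) and 0.08 (SMAD5, edgeR adjusted P = 0.325). The inhibitory SMAD7 had 148 and 140 normalized counts at 24 h and 61.5 and 82.5 at 6 h (log2 fold change 0.99, standard error 0.171, edgeR adjusted P = 1.43e-05). SMAD6 was lower at 24 h, so the values of the inhibitory SMADs differed in direction. SMAD3, which acts for TGF-beta and activin receptors, rose by 1.32 on the log2 scale (edgeR adjusted P = 2.81e-14).

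Of 10 intracellular and membrane brakes, 2 were higher and 1 lower (20.0% and 10.0%, beside 17.4% and 17.7% of all genes). PMEPA1, a membrane protein that holds back SMADs of TGF-beta receptors, rose by a log2 fold change of 0.97, and the SMAD corepressor SKI by 0.56 (edgeR adjusted P of 1.52e-08 and 3.43e-07). SKI was outside the cutoffs without the second 24 h library. TOB1, an antiproliferative protein that binds SMADs, fell by 0.88 on the log2 scale (edgeR adjusted P = 5.75e-10).

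Of 10 further targets of BMP signaling, 7 were fitted, and 2 were higher and 1 lower. These shares were 28.6% and 14.3%, beside 17.4% and 17.7% of all genes fitted. ATOH8, a basic helix-loop-helix factor, rose from 48.6 and 46.1 normalized counts at 6 h to 223 and 223 at 24 h (log2 fold change 2.24, standard error 0.163, edgeR adjusted P = 3.39e-12). GATA3, a zinc finger transcription factor, had 29.9 and 35.0 normalized counts at 24 h and 5.40 and 5.76 at 6 h. The difference was 2.51 on the log2 scale (standard error 0.408, edgeR adjusted P = 5.96e-06), at few counts. HEY1, a repressor that is also a Notch target, fell from 330 and 256 normalized counts to 99.6 and 97.3 (log2 fold change -1.57, standard error 0.146, edgeR adjusted P = 4.46e-10). The targets thus moved in both directions, as the ID genes did in their values. None (0) of the 3 E proteins passed the cutoffs. TCF12, with the highest mean normalized count of them, had log2 fold change -0.25 (standard error 0.0732, edgeR adjusted P = 0.00363). TCF3 went the other way, with 0.17 on the log2 scale (standard error 0.0694, edgeR adjusted P = 0.0360), and is named after its values were seen.

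**Figure D4:**
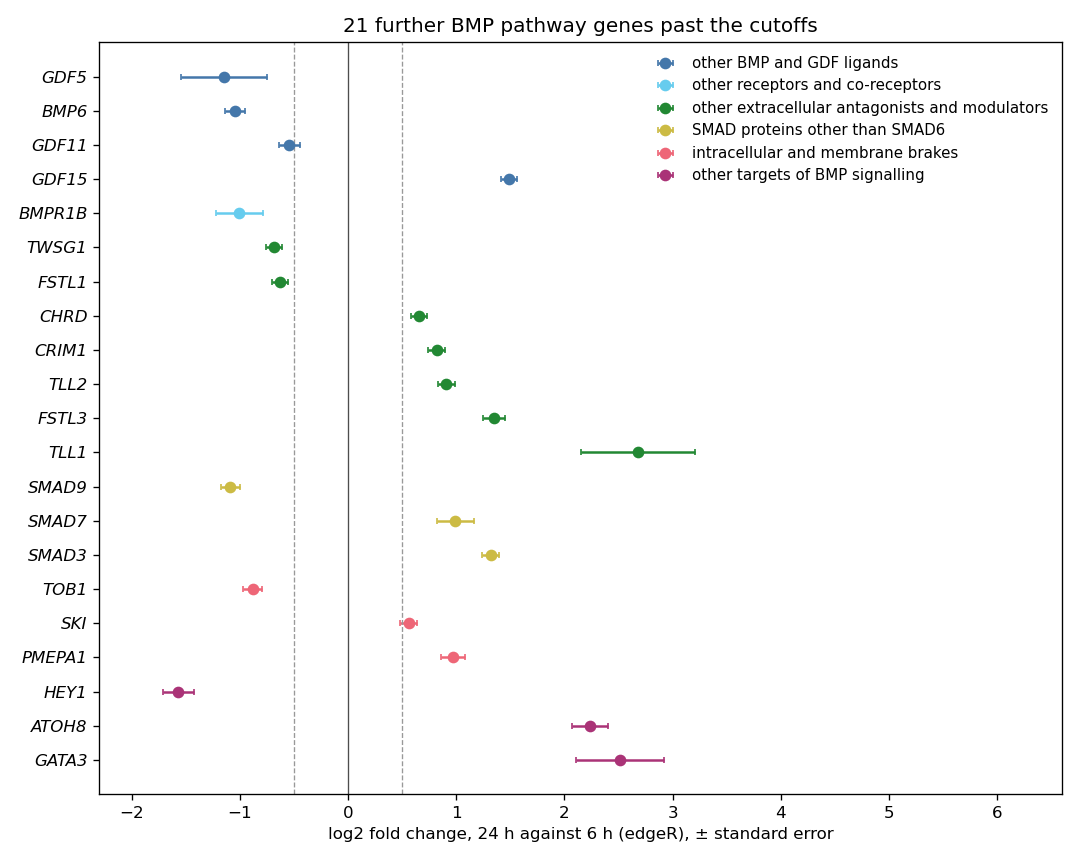
Log2 fold change of 24 h against 6 h with its standard error (horizontal axis) for the 21 further pathway genes past the cutoffs, grouped by role, with dashed lines at the cutoffs of 0.5 and -0.5. The antagonists and modulators, 11 of the 51 genes fitted, hold 5 of the 12 higher and 2 of the 9 lower genes. Of all genes fitted, 17.4% passed upward and 17.7% downward. HEY1 at -1.57 is the lowest gene.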

How the data were processed

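RNA was sequenced from TPC1 cells after 6 h or 24 h of BLU6864, and the authors aligned the reads with STAR (version 2.3 in the submitters' processing notes, a later version in the methods) to hg19. The counting program and its strand setting are not given in the sources used here. The authors deposited the raw count of reads per gene, and a normalized signal, the count divided by 1 DESeq2 size factor per library, which served only as an alternative. The deposited fold changes and P values of their own comparison were not used. No (0) columns with values per sample were left unused.

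The 12876 genes kept by filterByExpr, with 99.97% of the raw counts, entered edgeR 4.0.16 under R 4.3.3 (TMM, quasi-likelihood test, time as the factor, Benjamini-Hochberg adjustment over all of them). Standard errors were derived from the fold change and the F statistic. For normalized counts, each raw count was scaled by its library's effective (TMM) size over the mean of the 4. The biological coefficient of variation was 0.0521. The libraries of a time differed by more than the sampling noise (chi-square per degree of freedom of 7.65 and 10.0) and were counted as separate. Gene lengths came from GENCODE 44 by identifier, and promoters from RefSeq. Gene positions are those of the table, and positions of promoters are those of RefSeq, with no conversion between them. KCP was listed but not analysed here, and a thyroid marker is not reported here. The procedure was tested on simulated data. Plots were drawn with matplotlib 3.10.9.

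The members and lists were chosen with earlier results of these data known. The genes named were the 10 members, every further gene past the cutoffs, the most abundant gene of a role with none, and genes under the filter with more than 3 counts at 1 time only. Alternatives were DESeq2 1.42.0, upper quartile scaling, scaling by library size alone, the coding length, each library left out, a block for the replicate number, an adjusted P, and the filter replaced by none or by 10 counts per library.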

Additional observations from a re-analysis of the deposited data

How the results depend on the processing

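With an adjusted P under 0.05 and no cutoff on fold change, the further pathway genes counted as higher rose from 12 to 20 and those lower from 9 to 14. Across the other alternatives these counts ranged from 10 to 14 and from 7 to 10. Leaving out each library in turn gave 11 to 13 higher and 7 to 10 lower genes, where the library left alone at its time is assumed to vary like the others. Of the 21 genes, 16 passed under every alternative, and TLL1 and GATA3 were not tested when 10 counts were required in every library. With the coding length, the log2 ratio of 24 h to 6 h moved from 0.85 to 0.67 for the summed ligands, from -0.40 to -0.48 for the ligands without GDF15, and from -0.05 to -0.30 for the summed antagonists and modulators, and 2 of the 10 members at 24 h and 3 at 6 h kept their place in the order of levels. This alternative changes only the weight of each gene. Of 88 fold changes of the members under alternatives, 85 moved by less than the spread between libraries, and the others were BMP4 with library size alone, ID1 without the second 6 h library, and ID2 without the second 24 h library.

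The replicate numbers occur at both times, but neither labels nor methods say what they mark, and the deviations of same-numbered libraries had a correlation across genes of 0.0844. With the replicate number as a block, 13 further genes were higher and 9 lower. Genes with few counts, such as BMP2, GREM1, TLL1, GDF5, and GATA3, are limited by depth.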
